A study of Homo sapiens with 10 samples.

Results

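The 42 genes described here are the enzymes, transporters and regulators of glycolysis together with genes of the hypoxia response, measured by RNA sequencing in cultures of H460 and A549 cells, both established human lung cancer cell lines. They were chosen by symbol, and each was found once among the 46427 genes of the deposited table. H460 cells had 3 libraries of parental cells in 2D culture. Cells that survived a drug were re-plated after 3 days on the drug and 3 more days in fresh medium, and they comprised 1 library of cisplatin-resistant (CR, 4 µM), 2 of paclitaxel-resistant (PR, 5 nM) and 1 of doxorubicin-resistant (DR, 0.5 µM) cells. The tumor spheroid (TS) cells, which the labels name after a culture method for circulating tumor cells, had 1 library of H460 and 1 of A549 cells, and A549 cells had 1 further library of 2D culture. TS cells grew in suspension for at least 3 passages in medium with B27, EGF and bFGF, and 2D cells grew attached in serum, so medium and form of growth differ together and cannot be told apart.

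Glycolysis splits glucose into pyruvate in the cytosol, and lactate dehydrogenase turns pyruvate into lactate when it does not enter the mitochondria. The hypoxia-inducible factors HIF-1α and HIF-2α are made continuously and are destroyed after prolyl hydroxylases mark them, a reaction that needs oxygen, so they build up when oxygen is low and then raise the transcription of many glycolytic genes and of genes for blood vessel growth, pH control and mitophagy. Tumor cells often run glycolysis at a high rate even with oxygen present.

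The factors bind a short core motif on DNA, and the start regions of 6 of the genes are shown to display where its letters occur. They were picked among genes called in drug-resistant cells or raised in TS cells, with and without the motif, and no expression result below uses them. PGK1 and BNIP3 differed by only 1.67-fold and 1.64-fold. Each printed gene that was lower holds the motif, whereas LDHB, called lower without a match, is not printed. ALDOC, PGK1 and BNIP3 were lower in drug-resistant cells, ADM and P4HA2 were higher there, and ANKRD37 was among the genes most raised in H460 TS cells. Each sequence is the 250 bases before the transcription start in the RefSeq promoter table (GRCh38.p14), printed on the strand of the gene. Capitals mark ACGTG on either strand, which reads CACGT on the other one.
ALDOC: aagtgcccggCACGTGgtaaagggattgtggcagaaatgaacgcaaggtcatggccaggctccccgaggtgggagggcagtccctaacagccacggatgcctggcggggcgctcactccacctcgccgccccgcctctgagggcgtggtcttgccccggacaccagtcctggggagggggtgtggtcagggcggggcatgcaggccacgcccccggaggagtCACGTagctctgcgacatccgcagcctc
PGK1: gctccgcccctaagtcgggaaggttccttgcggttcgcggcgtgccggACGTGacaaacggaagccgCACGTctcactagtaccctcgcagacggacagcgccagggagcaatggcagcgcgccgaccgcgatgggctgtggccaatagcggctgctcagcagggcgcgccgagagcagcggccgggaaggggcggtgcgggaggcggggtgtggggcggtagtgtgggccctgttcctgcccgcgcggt
BNIP3: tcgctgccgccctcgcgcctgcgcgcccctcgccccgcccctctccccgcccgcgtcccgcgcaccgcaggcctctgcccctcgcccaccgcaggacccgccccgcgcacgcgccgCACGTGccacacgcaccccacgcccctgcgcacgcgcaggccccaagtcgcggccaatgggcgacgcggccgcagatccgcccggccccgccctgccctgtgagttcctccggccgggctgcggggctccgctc
ANKRD37: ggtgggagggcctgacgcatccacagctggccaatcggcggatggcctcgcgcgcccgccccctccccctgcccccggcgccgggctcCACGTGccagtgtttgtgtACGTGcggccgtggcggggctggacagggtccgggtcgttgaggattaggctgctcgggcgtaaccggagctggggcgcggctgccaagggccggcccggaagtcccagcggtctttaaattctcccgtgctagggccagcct
ADM: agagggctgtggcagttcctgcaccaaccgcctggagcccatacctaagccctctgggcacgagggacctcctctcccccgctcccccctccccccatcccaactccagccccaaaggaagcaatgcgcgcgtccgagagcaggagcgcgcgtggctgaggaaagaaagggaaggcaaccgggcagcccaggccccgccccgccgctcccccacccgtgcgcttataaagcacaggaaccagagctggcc
P4HA2: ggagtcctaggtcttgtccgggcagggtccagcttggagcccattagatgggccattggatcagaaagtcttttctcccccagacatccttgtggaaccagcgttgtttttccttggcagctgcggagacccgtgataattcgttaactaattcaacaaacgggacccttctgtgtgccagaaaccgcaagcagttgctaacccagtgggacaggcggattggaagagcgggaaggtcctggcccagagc
The windows of the 6 genes lie at chr17:28576896-28577145 on the minus strand (ALDOC), chrX:78103998-78104247 on the plus strand (PGK1), chr10:131981924-131982173 on the minus strand (BNIP3), chr4:185396591-185396840 on the plus strand (ANKRD37), chr11:10304823-10305072 on the plus strand (ADM) and chr5:132227092-132227341 on the minus strand (P4HA2). The motif ACGTG was found on at least 1 strand in a window of 23 of the 38 genes with an entry (60.5%), against 21.7% of the 27305 genes in that table. Genes can have several windows, and among genes with a single one the shares were 52% of 25 and 18.4% of 22114. The related core GCGTG was found in 52.6% of the 38 genes and 36.2% of all genes, and matches of both motifs can overlap. A palindrome counts once on each strand, so the ALDOC window holds 3 matches and that of ANKRD37 holds 3. Of the genes called lower in drug-resistant cells, 8 of 10 with an entry held ACGTG, and of those called higher 0 of 4 did. GCGTG was in 3 of those 4 and in 7 of the 10. Among the lower genes HK2, PFKP, TPI1 and PFKFB3 have 2 to 4 windows, and each held ACGTG in at least 1. Of the higher genes with an entry only KDM3A has more than 1 window, so these shares rest on unlike numbers of windows. These matches are a description of letters and were not tested as binding sites. SLC2A3, VEGFA, BNIP3L and NDRG1 have no printed window.

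The reads counted on genes numbered 59499787 to 89541774 per library (median 71656787), and the 42 genes took 2.05 to 2.86% of them. Levels are given as FPKM, read fragments scaled to transcript length and library size, which allows genes of different length to be set beside each other. FPKM was at least 1 in every library for 39 of the 42 genes, and the exceptions were HK2, CA9 and ANKRD37. H460 and A549 cells expressed the epithelial keratins KRT8 (283 to 3866 FPKM) and KRT18, while the lung markers NKX2-1, SFTPA1, SFTPB and SFTPC read at most 0.139 FPKM in any library. EPCAM and CDH1, which define epithelial cells, read at most 0.114 FPKM in H460 libraries. Nothing in the labels says that replicate libraries came from separate cultures, so the p-values below measure the spread between these libraries, which may be technical.

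**Figure D1:**
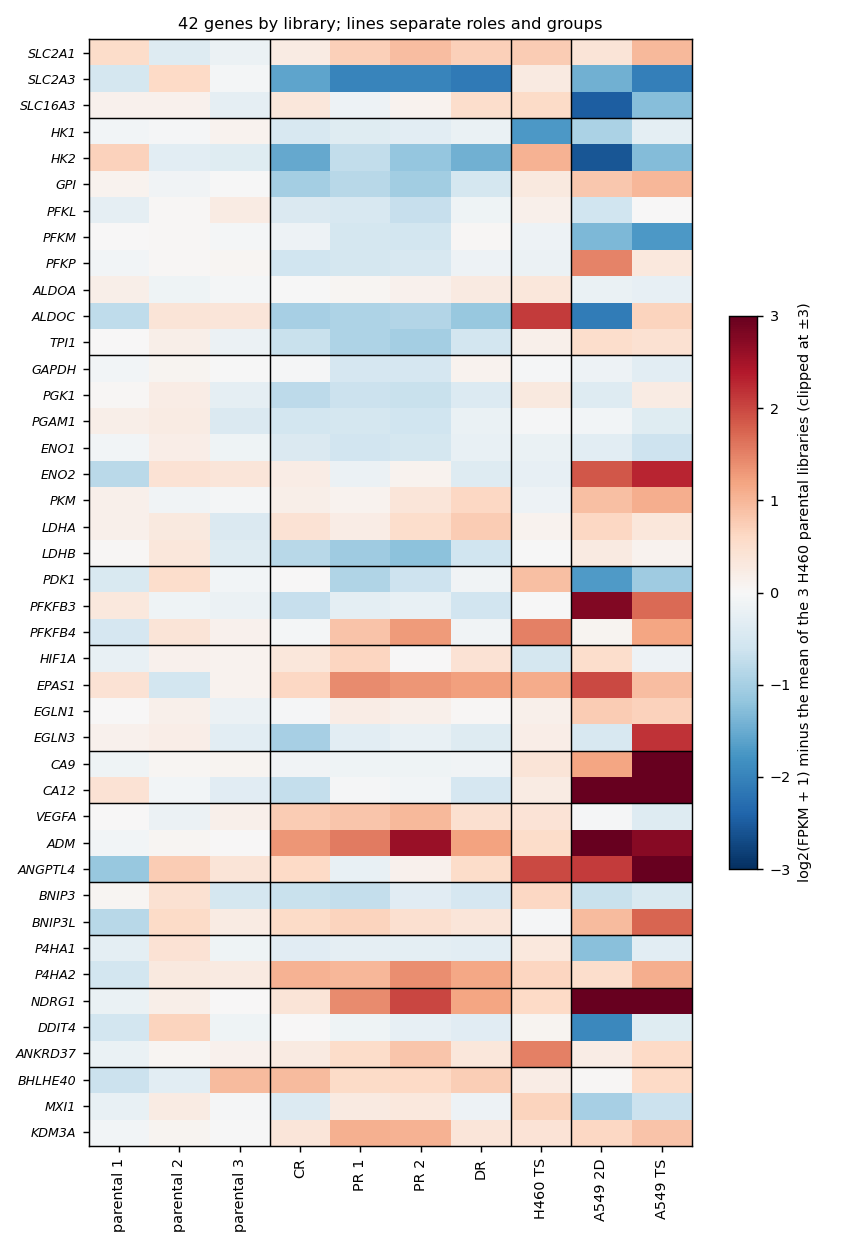
Each row is 1 of the 42 genes and each column 1 library. The color gives log2(FPKM + 1) minus the mean of the 3 H460 parental libraries, red for higher and blue for lower, clipped at 3, and horizontal lines separate the roles. SLC2A3, HK2, ALDOC, GPI and LDHB are blue in all 4 drug-resistant libraries, and ALDOC is red in the H460 TS library.

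The first comparison asked how these genes stood in drug-resistant cells as a group. Of the 9 enzymes of the first steps of glycolysis, 5 were lower in drug-resistant cells, as were GLUT3 and LDHB, and the hypoxia response genes ADM, NDRG1, P4HA2, EPAS1, KDM3A and VEGFA were higher. Other hypoxia response genes, EGLN3 and BNIP3, were lower, and so were PGK1 and PFKFB3. The 4 drug-resistant libraries were compared with the 3 parental ones by edgeR's quasi-likelihood test on the read counts, and a gene was called when its p-value, adjusted over all 18398 genes tested, was under 0.05. CA9 had too few reads to be tested in this fit. Of the 41 genes tested, 17 were called, beside 33.8% of all genes. They were 6 higher, beside 18.5% of all genes, and 11 lower, beside 15.3%. The median log2 fold change was -0.31 for the 41 genes and 0.06 for all genes. Every drug-resistant library lay above every parental one for 7 of the 41 genes, beside 22.1% of all expressed genes, and below for 11, beside 16.9%.

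The calls rest in part on scaling and on 1 parental library. With upper-quartile scaling, the median of all genes moved from 0.06 to 0.234, the split of all calls from 3397 higher and 2823 lower to 4210 and 2032, and 14 of the 41 genes were called, 7 in each direction. Without parental replicate 2, which was the highest of the 3 for 27 of the 42 genes, 10 were called, beside 21.5% of all genes in that fit. The genes called under all 13 alternatives were SLC2A3, HK2, GPI, ALDOC, TPI1 and LDHB, all lower, and ADM, P4HA2 and NDRG1, all higher. The markers of dividing cells moved with this comparison: the 5 measured (MKI67, TOP2A, CCNB1, CDK1 and MCM2) were all called lower, by 2.29 to 3.99 on the log2 scale, and their summed FPKM was 262 to 416 in parental and 20.4 to 71.6 in drug-resistant libraries. Their part in the results on these genes was not tested. In such bulk RNA, fewer cells of a type and less RNA per cell cannot be told apart.

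**Figure D2:**
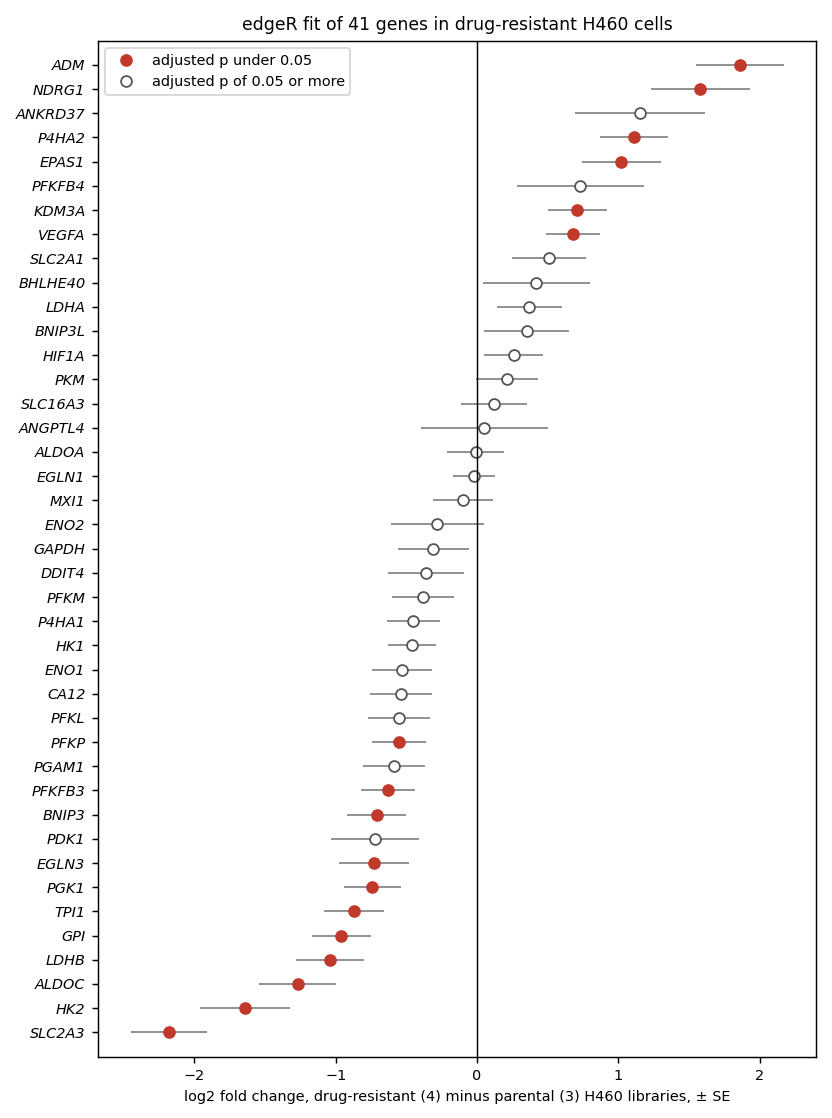
Points are the edgeR log2 fold changes of drug-resistant against parental H460 libraries for 41 genes, and bars are 1 standard error. Filled points have an adjusted p under 0.05, and they run from SLC2A3 at -2.18 to ADM at 1.86.

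Of the 3 transporters, 1 was called. SLC2A3 encodes GLUT3, a glucose transporter with high affinity. Its FPKM was 24.1, 53.7 and 33.5 in the parental libraries, 11.1 in CR, 8.17 and 8.19 in PR and 7.38 in DR cells. Every drug-resistant library was below every parental one, although parental replicates were themselves up to 2.23-fold apart. The log2 fold change was -2.18 ± 0.27 (SE, edgeR adjusted p = 0.000418), a 4.53-fold decrease and the largest among the 41 genes. SLC2A1, which encodes the common transporter GLUT1, read 42.2, 21.5 and 25 FPKM in parental cells and 33.8 to 55.1 FPKM in drug-resistant cells, and the groups overlapped (log2 fold change 0.51 ± 0.26, adjusted p = 0.148). With upper-quartile scaling it was called higher. SLC16A3, the lactate exporter MCT4, had 87.7 to 116 FPKM in parental and 94.6 to 154 FPKM in drug-resistant libraries and was not called (adjusted p = 0.712).

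None of the 9 enzymes of the first steps of glycolysis, which take glucose to triose phosphates, had a log2 fold change above 0, and 5 were called lower. With upper-quartile scaling ALDOA stood at 0.17, and the other 8 stayed below 0. HK2, the inducible hexokinase, had an FPKM of 14.4, 6.71 and 6.41 in parental cells, 2.29 in CR, 4.78 and 3.26 in PR and 2.53 in DR cells. The groups did not overlap, and parental replicate 1 was 2.24-fold above replicate 3. The log2 fold change was -1.64 ± 0.32 (adjusted p = 0.00397). ALDOC, an aldolase isoform usually abundant in brain, read 9.23, 21.8 and 21.2 FPKM in parental cells, 7.69 in CR, 8.13 and 8.39 in PR and 6.92 in DR cells. The drug-resistant libraries lay close together, and parental replicate 1 was nearest to them. Its log2 fold change was -1.27 ± 0.27 (adjusted p = 0.00569).

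GPI, which converts glucose phosphate to fructose phosphate, had 126, 109 and 117 FPKM in parental cells, 56.9 in CR, 65.4 and 56.6 in PR and 80.6 in DR cells. The parental libraries agreed within 1.16-fold, and the DR library was the nearest to them. The log2 fold change was -0.96 ± 0.21 (adjusted p = 0.00616). TPI1, which interconverts the triose phosphates, read 433, 485 and 380 FPKM in parental cells, 271 in CR, 225 and 213 in PR and 293 in DR cells, again without overlap (log2 fold change -0.87 ± 0.21, adjusted p = 0.0103). PFKP, the platelet form of phosphofructokinase, was at 88.1, 96.2 and 98.1 FPKM in parental cells, 61.6 in CR, 64.5 and 66.8 in PR and 84.4 in DR cells. Its log2 fold change of -0.55 ± 0.19 passed the threshold narrowly (adjusted p = 0.0473) and did so in 2 of the 13 alternatives. The other forms, PFKL (22.4 to 33.6 FPKM against 30.1 to 43.5) and PFKM (38.7 to 58.8 against 54.6 to 58.7), overlapped between the groups and were not called, and SENP1, which overlaps PFKM on the opposite strand, had 9.59 to 43% of its reads. HK1, the constitutive hexokinase, had 38.9 to 44.3 FPKM in parental and 28.9 to 35.8 in drug-resistant libraries, without overlap and with an adjusted p of 0.0619. ALDOA, the main aldolase, was at 924 to 1140 FPKM and at 1003 to 1209 FPKM (log2 fold change -0.01 ± 0.20).

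In the later steps, of 8 enzymes from GAPDH to lactate dehydrogenase, 2 were called, both lower. LDHB, the lactate dehydrogenase subunit that favors lactate use, read 693, 863 and 520 FPKM in parental cells, 379 in CR, 323 and 288 in PR and 444 in DR cells. No drug-resistant library reached the lowest parental one, and the log2 fold change was -1.04 ± 0.24 (adjusted p = 0.00882). LDHA, the subunit that favors lactate formation, had 702, 776 and 471 FPKM in parental cells and 857, 741, 914 and 1086 FPKM in CR, both PR and DR cells, and its log2 fold change of 0.37 ± 0.23 was not called (adjusted p = 0.238). PGK1, the first enzyme of the pathway to yield ATP, was at 212, 240 and 172 FPKM in parental cells, 120 in CR, 131 and 130 in PR and 156 in DR cells. These groups also did not overlap (log2 fold change -0.74 ± 0.20, adjusted p = 0.0158). PGAM1 was lower in most drug-resistant libraries, at 161 to 169 FPKM in CR and PR cells and 212 in DR cells, against 181 to 292 in parental cells, with an adjusted p of 0.0551. ENO1, an enolase and one of the most abundant of the 42 transcripts, had 1636 to 2044 FPKM in parental and 1190 to 1526 FPKM in drug-resistant libraries, without overlap (adjusted p = 0.0694). GAPDH, the most abundant of the 42, took 0.978 to 1.5% of the total FPKM of a library and stood at 5919 to 6646 FPKM in parental cells. It was at 6043 in CR, 4378 and 4425 in PR and 6665 in DR cells, so PR cells alone lay below the parental range. PKM (702 to 846 FPKM in parental, 820 to 1158 in drug-resistant libraries) and ENO2 (2.84 to 8.01 and 4.11 to 6.74) overlapped and were not called.

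The flux is controlled by further enzymes. PFKFB3 and PFKFB4 make and remove the sugar bisphosphate that activates phosphofructokinase, and PDK1 blocks the entry of pyruvate into the mitochondria. PFKFB3 had an FPKM of 11.7, 8.39 and 8.06 in parental cells, 5.36 in CR, 7.43 and 7.81 in PR and 5.85 in DR cells. All drug-resistant libraries were lower, the PR ones by little, and the log2 fold change was -0.63 ± 0.19 (adjusted p = 0.0259). PFKFB4 read 1.09, 2.91 and 2.24 FPKM in parental cells and 1.88, 4.39, 6.18 and 1.77 FPKM in CR, both PR and DR cells. It was thus high in PR cells and within the parental range in CR and DR cells, and the group was not called (0.73 ± 0.45, adjusted p = 0.228). PDK1 was at 6.07 to 12.9 and 4.12 to 8.77 FPKM, with an adjusted p of 0.0989. For PDK1 the FPKM per read moved between libraries by up to 0.36 on the log2 scale, more than for the other genes compared in this way.

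Of the 4 genes of oxygen sensing, EPAS1 was called higher and EGLN3 lower. EPAS1 encodes HIF-2α, and its FPKM was 27.8, 13.4 and 22 in parental cells, 31.8 in CR, 55.6 and 52.3 in PR and 48.4 in DR cells. All 4 drug-resistant libraries were above all parental ones, with CR cells nearest to them, and the log2 fold change was 1.02 ± 0.28 (adjusted p = 0.0182). HIF1A, which encodes HIF-1α, read 47.5 to 60.6 FPKM in parental and 56.4 to 87.7 in drug-resistant libraries and was not called (0.26 ± 0.21, adjusted p = 0.372). Of the prolyl hydroxylases, EGLN3 had an FPKM of 4.73, 5.04 and 3.19 in parental cells, 1.63 in CR, 3.24 and 3.5 in PR and 2.99 in DR cells. The PR libraries lay inside the parental range, and the log2 fold change of -0.73 ± 0.25 was called (adjusted p = 0.042), as it was in 3 of the 13 alternatives. EGLN1 was at 11.4 to 14.5 and 12.5 to 15.4 FPKM (log2 fold change -0.02 ± 0.15).

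Of the 3 secreted factors, ADM and VEGFA were called higher. ADM encodes adrenomedullin, a peptide that widens vessels. Its FPKM was 3.83, 4.34 and 4.17 in parental cells, 11.8 in CR, 14 and 29.7 in PR and 10.8 in DR cells. The lowest drug-resistant library was over 2-fold above the highest parental one, and PR replicate 2 stood apart from the other 3. The log2 fold change was 1.86 ± 0.31 (adjusted p = 0.00182), the largest increase of the 41 genes. VEGFA, the vascular growth factor, read 13.4, 11.6 and 14.9 FPKM in parental cells, 23 in CR, 24.2 and 26.9 in PR and 18.8 in DR cells, without overlap (0.68 ± 0.19, adjusted p = 0.0196). ANGPTL4, a secreted inhibitor of lipoprotein lipase, varied 5.05-fold among parental libraries (1.96, 9.89 and 7.39 FPKM), and the 4.53 to 8.86 FPKM of the drug-resistant libraries lay inside that range. BNIP3, a mitophagy receptor, was at 57.6, 76.3 and 38.2 FPKM in parental cells, 34.2 in CR, 33.3 and 43.6 in PR and 38.9 in DR cells. The groups overlapped at parental replicate 3 (log2 fold change -0.71 ± 0.21, adjusted p = 0.0258). Its relative BNIP3L read 4.31 to 12.9 and 11.1 to 13.8 FPKM and was not called, and PNMA2, on the opposite strand, had 2.81 to 124% of its reads. CA12, a carbonic anhydrase of the cell surface, was at 7.79 to 14.1 and 5.83 to 10.0 FPKM with an adjusted p of 0.079. CA9, a related enzyme and a common hypoxia marker, was hardly expressed in H460 2D cells, with 0, 19 and 24 reads in parental, 2 in CR, 0 and 0 in PR and 5 in DR libraries.

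Among the collagen hydroxylases, stress genes and regulators of transcription, 3 were called, all higher. P4HA2, a subunit of the enzyme that hydroxylates collagen prolines, had an FPKM of 4.28, 8.42 and 8.35 in parental cells, 15 in CR, 14.5 and 19.4 in PR and 16.3 in DR cells. The groups were well apart, and the log2 fold change was 1.11 ± 0.24 (adjusted p = 0.0069). P4HA1, the subunit of the other isoform, stood at 33.3 to 56.3 FPKM in parental and 32.6 to 34.3 in drug-resistant cells, with a change in the other direction that was not called (-0.45 ± 0.19, adjusted p = 0.0949). NDRG1, a stress-induced gene of growth arrest and differentiation, read 1.72, 2.54 and 2.17 FPKM in parental cells, 3.09 in CR, 7.4 and 11.6 in PR and 6.13 in DR cells. It was above the parental range in all 4 libraries and least so in CR cells (1.58 ± 0.35, adjusted p = 0.00656). KDM3A, a histone demethylase, was at 6.11, 6.94 and 6.4 FPKM in parental cells, 8.58 in CR, 14.7 and 14.5 in PR and 8.64 in DR cells. Both PR libraries exceeded the CR and DR ones, and the group was called (0.71 ± 0.21, adjusted p = 0.0249). ANKRD37 was above the parental range in each drug-resistant library, at 0.654 to 1.42 against 0.187 to 0.502 FPKM, with an adjusted p of 0.0747. It rests on 14 to 76 reads per library, and UFSP2, which overlaps it on the opposite strand, has at least 928% of its reads in every library, so that reads of the pair cannot be told apart if strand was not used. DDIT4, an inhibitor of mTORC1 signaling (220 to 518 and 257 to 324 FPKM), BHLHE40, a transcriptional repressor (29.1 to 89.6 and 69 to 88.8), and MXI1, an antagonist of MYC (5.8 to 8.44 and 4.95 to 8.92), overlapped and were not called. Without parental replicate 3, the highest parental library for this gene at 89.6 FPKM, BHLHE40 was called higher. Its log2 fold change was then 1.13 (edgeR adjusted p = 0.00709) in place of 0.42 (adjusted p = 0.411).

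**Figure D3:**
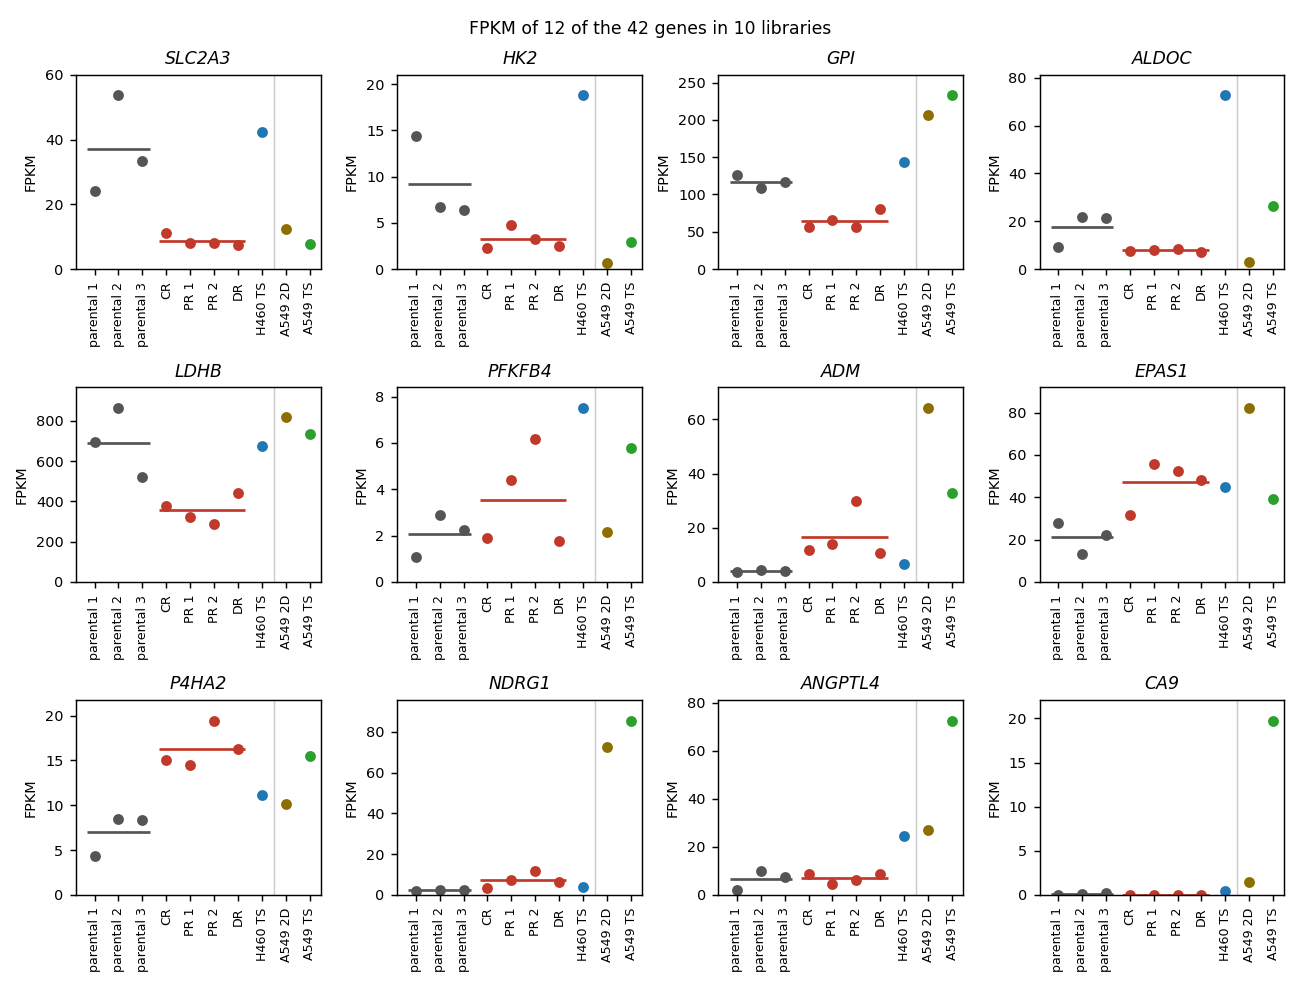
FPKM of 12 of the 42 genes in each of the 10 libraries, with each axis starting at 0. Short lines are the means of the 3 parental (grey) and 4 drug-resistant (red) libraries, and the vertical line separates H460 from A549 cells. SLC2A3 lies at 7.38 to 11.1 in drug-resistant and 24.1 to 53.7 in parental libraries, and CA9 is high in A549 TS cells only, at 19.7.

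Because the names of the libraries are written in 2 ways, these were treated as a possible batch. Parental replicate 2, CR, DR and PR replicate 2 are written one way, and the remaining H460 libraries the other way. All 17 called genes had the same direction within both forms (1 drug-resistant against 2 parental and 3 against 1 libraries), which is no independent support, since they were called on these libraries. Of the 41 genes, 14 were called with the form as a covariate, beside 25% of all genes in that fit.

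The single drugs were then set beside each other. All share the 3 parental libraries as control, and CR and DR cells have 1 library each and therefore no test. The difference was taken on log2(FPKM + 1), where the change of a gene at a low FPKM comes out too small, and 2-fold was the threshold. In CR cells ADM and P4HA2 were more than 2-fold higher, beside 5.84% of all expressed genes, and SLC2A3, HK2 and GPI more than 2-fold lower, beside 7.05%. In DR cells EPAS1, ADM, NDRG1 and P4HA2 were higher, beside 5.76%, and SLC2A3, HK2 and ALDOC lower, beside 5.68%. The mean of PR cells was higher for ADM, NDRG1, EPAS1, P4HA2, KDM3A and PFKFB4, beside 7.62%, and lower for SLC2A3 and LDHB, beside 5.62%. On this scale ADM, P4HA2 and SLC2A3 passed with each of the 3 drugs. As plain FPKM ratios to the parental mean, HK2 (CR 0.25, DR 0.276, PR 0.438) and ALDOC (CR 0.442, DR 0.398, PR 0.475) were also more than 2-fold lower with each drug. For ADM the FPKM ratio to the parental mean was 5.31 in PR cells, 2.88 in CR cells and 2.63 in DR cells. In the same order it was 4.44, 1.44 and 2.86 for NDRG1, and 0.52, 0.485 and 0.687 for GPI. When 2-fold was asked from every parental library, 3 genes passed in CR cells, beside 6.67% of all expressed genes, 4 in DR cells, beside 6.46%, and 3 for the PR mean, beside 7.61%. With scaling to the same upper quartile, CR cells had 3 higher and 2 lower in place of 2 and 3, beside 13.6% of all genes in either direction. DR cells then had 13, 12 of them higher, beside 19.7%, where the median difference of all genes rose from -0.03 to 0.46.

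PR cells are the only ones with replicates, and their 2 libraries were tested against the 3 parental ones. Of the 42 genes, 20 were called, beside 28.1% of 19430 genes. The 6 higher, beside 17.5%, were PFKFB4, EPAS1, ADM, P4HA2, NDRG1 and KDM3A. The 14 lower, beside 10.6%, were SLC2A3, LDHB, PDK1 and 11 enzymes between hexokinase and enolase (HK2, GPI, PFKL, PFKM, PFKP, ALDOC, TPI1, GAPDH, PGK1, PGAM1 and ENO1). The median log2 fold change was -0.50 for the 42 genes, with CA9, at 0 reads in both PR libraries, below it, and 0.05 for all genes. Both PR libraries lay above every parental one for 10 of 41 expressed genes, beside 32% of all, and below for 16, beside 21.9%. SLC2A3 had a log2 fold change of -2.40 ± 0.35 (edgeR adjusted p = 0.00284), LDHB -1.40 ± 0.28 (adjusted p = 0.0069) and PFKFB4 1.23 ± 0.38 (adjusted p = 0.0405). Of the other genes called higher, ADM was at 2.16, NDRG1 at 1.92, EPAS1 at 1.11, P4HA2 at 1.04 and KDM3A at 0.95 on the log2 scale, with SE of 0.22 to 0.33 and adjusted p from 0.00275 to 0.0376. Of those called lower, HK2 was at -1.41, ALDOC at -1.30, PDK1 at -1.18, GPI at -1.16 and TPI1 at -1.11, with SE of 0.25 to 0.41 and adjusted p from 0.00977 to 0.0398. PGK1, PFKL, PGAM1, ENO1, PFKM and PFKP lay between -0.90 and -0.75, with SE of 0.23 to 0.27 and adjusted p from 0.024 to 0.0481. GAPDH, with 5919, 6646 and 6149 FPKM in parental and 4378 and 4425 in PR cells, was at -0.74 ± 0.24 (adjusted p = 0.047), close to the threshold. Since both comparisons use the same parental and PR libraries, the 13 genes called in both are not independent. With upper-quartile scaling the median of all genes moved from 0.05 to 0.296, the split of all calls from 3391 higher and 2064 lower to 4252 and 1347, and 12 of the 42 genes were called, 7 higher, beside 21.9% of all genes, and 5 lower, beside 6.93%. The calls were 7 higher and 4 lower both with limma, beside 14.8% and 9.27% of all genes, and with the CPM minimum, beside 9.84% and 9.8%, so that the larger number of lower calls did not hold under these settings. Leaving out PR replicate 1 or PR replicate 2 left 3 calls (SLC2A3, ADM and NDRG1), beside 10.4% and 4.81% of all genes, and leaving out parental replicate 2 left 8, beside 18.6%.

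The next comparison asked how these genes differ in TS cells. Each line has 1 TS library, so both lines were fitted together with the line as a covariate (2 TS against 4 2D libraries). No gene of the 42 was called by edgeR, beside 0.191% of 18372 genes, 10 had an unadjusted p under 0.05, beside 7.42% of all genes, and DESeq2 called 3, beside 2.92%. Of these 10, SLC16A3, HK2, ALDOC, PFKFB4, CA9, ANGPTL4, NDRG1, ANKRD37 and MXI1 had higher levels and HIF1A had lower levels in TS cells. The 3 called by DESeq2 were ALDOC (adjusted p = 5.61e-05), PFKFB4 (adjusted p = 0.0182) and SLC16A3 (adjusted p = 0.0265). The median log2 fold change was 0.31 for the 42 genes and -0.01 for all genes. Without the H460 TS library, EGLN3 was called (adjusted p = 0.0258). That fit sets 1 A549 TS against 1 A549 2D library and takes all its spread from the parental libraries.

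ALDOC had the largest fitted change among the genes with an FPKM over 1 in every library. Its FPKM was 9.23, 21.8 and 21.2 in parental and 72.6 in TS cells of H460, and 3.03 in 2D and 26.5 in TS cells of A549. Both TS libraries were far above the 2D libraries of their line (log2 fold change 2.52 ± 0.44, edgeR adjusted p = 0.105). In drug-resistant cells the same gene read 6.92 to 8.39 FPKM. PFKFB4 read 1.09, 2.91 and 2.24 FPKM in parental and 7.5 in TS cells of H460, and 2.15 and 5.79 FPKM in A549 2D and TS cells (1.68 ± 0.40, adjusted p = 0.223). HK2 had 14.4, 6.71 and 6.41 FPKM in parental and 18.8 in TS cells of H460, and 0.627 and 2.91 in A549 cells (1.55 ± 0.45, adjusted p = 0.346). ANGPTL4 read 1.96, 9.89 and 7.39 FPKM in parental and 24.6 in TS cells of H460, and 26.9 and 72.4 in A549 cells (1.77 ± 0.55, adjusted p = 0.391). In all of these the TS library exceeded each 2D library of its own line. These 4 genes, ALDOC, PFKFB4, HK2 and ANGPTL4, were more than 2-fold higher in the TS cells of both lines, beside 0.644% of the 11335 genes expressed in both comparisons, and none of the 42 was more than 2-fold lower in both, beside 0.371%.

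**Figure D4:**
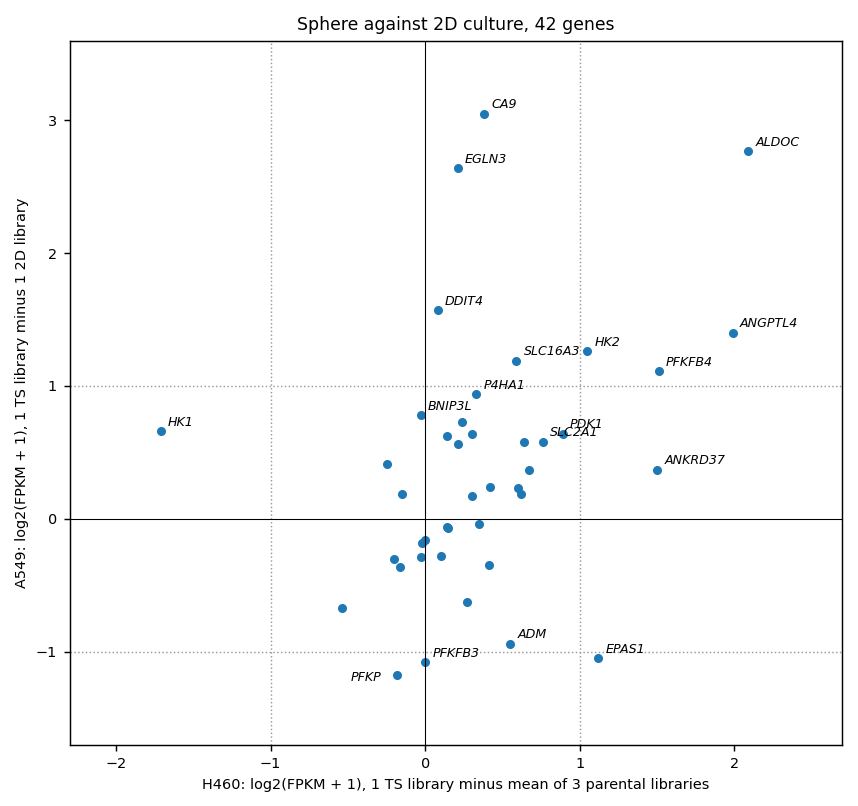
Each point is 1 of the 42 genes. The horizontal axis is the difference of log2(FPKM + 1) between the H460 TS library and the mean of 3 parental libraries, the vertical axis the same between the A549 TS and 2D libraries, and dotted lines mark 2-fold. ALDOC, ANGPTL4, PFKFB4 and HK2 are past 2-fold in both lines, and CA9 and EGLN3 are past 2-fold for A549 only. CA9 is near 0 on the H460 axis because 1 is added to a low FPKM (0.425 against at most 0.15).

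In H460 TS cells alone, 6 genes were more than 2-fold higher, beside 1.93% of expressed genes, and HK1 more than 2-fold lower, beside 1.97%. The 6 were ALDOC, ANGPTL4, PFKFB4, ANKRD37, EPAS1 and HK2. HK1 fell outside the parental range by far, with 11.8 FPKM against 38.9, 39.9 and 44.3, while HK2, the other main hexokinase, was at 18.8 FPKM, above its parental libraries. ANKRD37 stood at 2.87 FPKM against 0.187 to 0.502. EPAS1 read 45 FPKM against 27.8, 13.4 and 22, and HIF1A 38 FPKM against 47.5 to 60.6. The TS library was above all 3 parental ones for 20 of 41 expressed genes, beside 19% of all, and below them for 6, beside 20.5%. Among the 20 were SLC2A1 (48.7 FPKM), SLC16A3 (159), GPI (144), PDK1 (16.9), BNIP3 (85.7) and P4HA2 (11.1). The summed fibroblast markers were 28.3 FPKM in this library against 1.29 to 6 in parental ones, nearly all of it LUM at 26.6 FPKM (0.237 to 2.76 in parental libraries), while COL1A1 read 0.051 and DCN 0.0761 FPKM. Their part in these results was not tested.

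In A549 TS cells, 8 genes were more than 2-fold higher than in the 2D library, beside 6.7% of expressed genes, and 3 more than 2-fold lower, beside 3.02%. CA9 went from 1.5 to 19.7 FPKM (175 and 2485 reads; 48 reads in H460 TS against 0, 19 and 24 in parental cells), EGLN3 from 2.79 to 22.6, DDIT4 from 84.6 to 253 and SLC16A3 from 18.2 to 42.8, beside the 4 genes raised in both lines. The exons of CA9 overlap ARHGEF39, which had up to 1742 reads and at least 56.6% of those of CA9, and those of SLC16A3 overlap CSNK1D on the opposite strand, and CSNK1D had 26.1 to 314% of the reads of SLC16A3. On the same strand UCN2, with up to 37.4% of its reads, overlaps PFKFB4. PFKP went from 267 to 118 FPKM, PFKFB3 from 69.9 to 32.4 and EPAS1 from 82.1 to 39.2. With 1 library on each side there was no replicate check. The markers of dividing cells summed to 352 FPKM in the 2D and 187 in the TS library of A549, and to 319 in the H460 TS library. Of the immune markers, LYZ read 0 and 37.7 FPKM and CD68 19.6 and 69.8 FPKM in A549 2D and TS cells, whereas PTPRC and CD3E read at most 0.00459 FPKM there. The part of these markers in the results was not tested.

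The difference between the lines was fitted with an interaction term. Of its 4 arms 3 hold 1 library each, so the spread comes from the 3 parental libraries alone, and the others are assumed to vary like them. No gene of the 42 was called, beside 0.436% of 19941 genes, and 4 had an unadjusted p under 0.05, beside 8.16% of all genes, a share near the background. With arms of this size the fit does not show whether the lines differ or respond alike, so the levels are given as a description. HK1 read 20.6 and 33.2 FPKM in A549 2D and TS cells, the opposite direction to H460 cells, and ADM read 64.1 and 32.9 FPKM there against 6.49 FPKM in H460 TS cells. By sign alone, 22 of the 42 genes were higher in TS cells of both lines, beside 21.3% of all, and 8 were lower in both, beside 27.4%. The 8 lower in both included GAPDH, PGAM1, ENO1 and LDHB of the later steps, all within 2-fold. In H460 cells GAPDH (-0.02), PGAM1 (-0.03) and LDHB (-0.0 on the log2 scale) hardly differed and lay inside the parental range. ENO1 lay below it, at 1550 FPKM against 1636 to 2044.

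The 2D cells of the lines were also compared, with 1 A549 library and no test. Against the H460 parental mean, 9 genes were more than 2-fold higher in the A549 2D library, beside 11.2% of expressed genes, and 9 lower, beside 7.73%. NDRG1 read 72.7 FPKM in A549 2D cells against 1.72 to 2.54 in parental H460 cells, ADM 64.1 against 3.83 to 4.34, CA12 91.8 against 7.79 to 14.1 and PFKFB3 69.9 against 8.06 to 11.7. The others that were higher were ANGPTL4 (26.9 against 1.96 to 9.89), EPAS1 (82.1 against 13.4 to 27.8), ENO2 (23.4 against 2.84 to 8.01), PFKP (267 against 88.1 to 98.1) and CA9 (1.5 against 0 to 0.15). HK2 read 0.627 FPKM against 6.41 to 14.4, SLC16A3 18.2 against 87.7 to 116 and ALDOC 3.03 against 9.23 to 21.8. Also lower were DDIT4 (84.6 against 220 to 518), PDK1 (1.97 against 6.07 to 12.9), SLC2A3 (12.4 against 24.1 to 53.7), PFKM (21.6 against 54.6 to 58.7), P4HA1 (16.8 against 33.3 to 56.3) and MXI1 (2.95 against 5.8 to 8.44). The A549 2D library lay outside the H460 parental range for 35 of the 41 expressed genes, 18 above, beside 36.6% of all, and 17 below, beside 30.8%.

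The parental libraries set a limit on all H460 comparisons. Parental replicate 1 was the lowest of the 3 for 22 of the 42 genes. On FPKM, 12 genes were more than 2-fold apart between the highest and the lowest parental library, leaving out CA9, which had 0 reads in replicate 1. On log2(FPKM + 1), where low values differ less, 6 genes were past 2-fold between replicates 1 and 2 (SLC2A3, ALDOC, ENO2, ANGPTL4, BNIP3L and DDIT4), beside 2.92% of expressed genes. On the same scale replicates 1 and 3 were past 2-fold in 6 genes, beside 6.57%, and replicates 2 and 3 in BHLHE40 alone, beside 4.56%. The most uniform genes were PFKM, PFKP, GAPDH, ADM, HK1 and KDM3A, with 1.08- to 1.14-fold between the highest and the lowest parental library.

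Other genes of these pathways were counted from lists in the drug-resistant comparison, where 18.5% of all genes were called higher and 15.3% lower. Of 18 further glycolysis and gluconeogenesis genes tested, 7 were called higher and 3 lower, with a median log2 fold change of 0.59, beside 0.06 for all genes. HK3, a hexokinase mostly of blood cells, had 0 reads in the parental and 4 to 25 in the drug-resistant libraries, at least 13.6-fold higher against a floor of 3 reads over the parental group, yet at most 0.087 FPKM. SLC2A12, a glucose transporter, read 0.0957 to 0.54 and 0.671 to 2.94 FPKM (log2 fold change 2.23 ± 0.60, edgeR adjusted p = 0.0173). HKDC1, another hexokinase, was at 1.61 ± 0.50 (adjusted p = 0.0308), and PCK2, the mitochondrial form of the gluconeogenic carboxykinase, at -1.55 ± 0.31 (adjusted p = 0.00425). Of 12 genes of pyruvate entry, 1 was called higher and 5 lower. PDK4, a kinase that blocks pyruvate dehydrogenase, had 3.65 to 28.1 FPKM in parental and 41.3 to 75 in drug-resistant cells (1.84 ± 0.56, adjusted p = 0.0277). Of the subunits of the enzyme itself, the 3 called with the largest change were lower, PDHA1 by 1.06 (adjusted p = 0.00719), PDHB by 0.99 (adjusted p = 0.00682) and DLAT by 0.99 (adjusted p = 0.00676) on the log2 scale, and DLD was not called (adjusted p = 0.0971).

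Of 7 pentose phosphate genes tested, RPIA (-1.46 ± 0.22, edgeR adjusted p = 0.00117) and RPE (-0.70 ± 0.23, adjusted p = 0.042), an isomerase and an epimerase of the pathway, were called lower. Of 7 glycogen genes, PPP1R3C, a targeting subunit that promotes glycogen synthesis, was called higher, with 31 to 54.2 FPKM in parental and 83.9 to 170 in drug-resistant cells (1.43 ± 0.32, adjusted p = 0.00695). Of 26 further genes of the HIF pathway tested, 7 were called higher and 2 lower, with a median of -0.14. CXCR4, a chemokine receptor, was at 4.44 ± 1.24 (edgeR adjusted p = 0.0202). It had 6, 0 and 2 reads in parental, 5 in CR, 144 and 90 in PR and 21 in DR libraries. The CR library, at 0.0286 FPKM, lay inside the parental range of 0 to 0.0341 FPKM, and every H460 library was below 1 FPKM. ARNT2, a dimerization partner of HIF-1α and HIF-2α, was at 3.14 ± 0.65 (adjusted p = 0.00513) on 2 to 19 parental reads and at most 0.243 FPKM in drug-resistant libraries, and SAP30, a corepressor subunit, at -1.36 ± 0.21 (adjusted p = 0.00116). Of 5 genes of glucose sensing, MLX was called lower (-0.63 ± 0.20, adjusted p = 0.037). In TS cells no gene of these lists was called by edgeR, and 7 had an unadjusted p under 0.05, beside 7.42% of all genes. These were 1 of 16 further glycolysis genes tested, 1 of 7 glycogen, 4 of 26 HIF pathway and 1 of 5 glucose sensing genes. There were 0 of 12 for pyruvate entry and 0 of 7 for pentose phosphate. LOXL2, CXCR4, SLC2A6 and PPP1R3B were called under at least 1 alternative.

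The markers of other cell types were low or incomplete in drug-resistant cells. The summed fibroblast markers were 1.29 to 6 FPKM in parental and 6.03 to 19.5 in drug-resistant libraries, with COL1A1 and DCN called higher. NAPSA of the lung markers was called higher at no more than 0.318 FPKM, and VWF of the endothelial markers at no more than 0.0782 FPKM. The summed immune markers were 15.1 to 16.9 and 30.9 to 57.9 FPKM, nearly all of it CD68, which was called higher, while PTPRC and CD3E were at 0 in parental and at most 0.157 FPKM in drug-resistant libraries. The endothelial markers summed to at most 0.139 FPKM. Their part in the results was not tested.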

How the data were processed

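Poly(A) RNA of H460 and A549 cells was sequenced in 10 libraries, and per the labels the authors used bcl2fastq 1.8.4, Trimmomatic, HISAT2 2.1.0 and StringTie 2.1.3b with GRCh38. For each of 46427 genes the authors deposited a whole read count without normalization, an FPKM, normalized for transcript length and library size, and a TPM, which was not used here. Whether strand was used in counting is not given in the sources used here. The 42 genes and all lists were chosen with earlier results of these data known.

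Read counts were compared in R 4.3.3 with edgeR 4.0.16 (TMM, filterByExpr, glmQLFit and glmQLFTest), and p-values were adjusted by Benjamini-Hochberg over all genes tested, with a threshold of 0.05. The drug-resistant libraries were fitted as one group, so its spread includes differences between drugs. The single drugs, each TS library and the lines in 2D culture were also compared on log2(FPKM + 1) without a test, among genes that reached 1 FPKM in at least 1 library compared. All 42 genes are named by role, with values for those called or more than 2-fold apart, and of each further list up to 4 called genes with the largest change. The result of one such gene is not reported here. Alternatives were upper-quartile scaling, DESeq2 1.42.0, limma 3.58.1 on log2(FPKM + 1), other filters, a pseudocount of 0.1, single parental libraries as control, each replicate left out, the form of library name and a replicate block. The interaction term was added after seeing the data. The fits were tested on simulated data. Overlapping exons were taken from GENCODE 29, and promoter windows from RefSeq, and for 36 of 38 genes their bases after the start were found within 400 bases of a GENCODE 29 transcript start of that gene. Other values came from Python 3.11.15, numpy 2.4.6 and pandas 2.3.3, and figures from matplotlib 3.10.9. Reads on pseudogenes were at most 2.71% of those of the gene.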

Additional observations from a re-analysis of the deposited data

Results flagged for a closer look

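Among the 4 drug-resistant libraries, 1 library stood apart from the rest by Dixon's criterion for 2 of the 42 genes, and chance alone does so in about 1 of 20 groups. PGAM1 read 212 FPKM in DR cells against 161 to 169 FPKM in CR and PR cells. ADM read 29.7 FPKM in PR replicate 2 against 10.8 to 14 FPKM in the other libraries, all of them above the parental 3.83 to 4.34 FPKM.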

How the results depend on the processing

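In the drug-resistant comparison (17 genes called of the 41), leaving out each library in turn gave 10 to 18 calls among them and 4215 to 6585 among all genes. The lowest count of the 41 came without parental replicate 2 (4231 of all genes). For PR cells (20 genes called of 42, 5455 of all genes), 12 were called with upper-quartile scaling, 11 with limma (3026 of all genes) and 11 with a minimum CPM of 1 in 3 libraries (2608 of all genes). Leaving out 1 library gave 3 to 20 of the 42 and 950 to 6661 of all genes, and a lone PR library is then assumed to vary like the parental ones. PR and parental replicates share numbers, but their differences between replicates 1 and 2 correlated only at r = 0.156 over 12593 genes. With these numbers as a replicate block 21 genes were called, beside 35.3% of all genes, against 20 in the same 4 libraries without it, beside 34.7%. For TS cells (0 of the 42, 35 of all genes), DESeq2 called 3 and 537, the CPM minimum left 11 of all genes, and leaving out 1 library gave 0 to 1 and 6 to 322. The cause was not tested.

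Of genes more than 2-fold from the parental mean, CR cells had 5, beside 12.9% of all expressed genes. They had 11 against parental replicate 1 alone (19.8%), 9 against replicate 2 alone (16% of all), 4 to 8 with a parental library left out (11.4 to 16.3%), and 3 where 2-fold was asked from every parental library (6.67%). The PR mean had 8 (13.2%) and 3 under that last rule (7.61%). DR cells had 7 (11.4%), then 4 (6.46%), and 13 with upper-quartile scaling (19.7%). None of the called values reversed. Of the values of single genes in the tested comparisons, 1314 kept their call or lack of one under an alternative, 136 lost a call and 37 gained one. CA9 had too few reads for the main drug-resistant fit, so its values in that comparison are not among these. The fit without a filter on low counts did hold it. So did the fit without parental replicate 1, where CA9 was among the 15 genes called, as lower. It gave no value with the CPM minimum for TS cells. For PR cells it gave none under 6 of the 12 alternatives (limma, the CPM minimum, both fits on 4 libraries, and without parental replicate 2 or 3). ANKRD37 gave none with the CPM minimum in the 3 comparisons, nor with limma in the drug-resistant and PR ones.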
